A study of Mus musculus with 2 samples.

Results

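Receptors by which myeloid cells such as macrophages, dendritic cells and neutrophils recognise antibodies, sugars and microbial products were followed through the differentiation of mouse brown preadipocytes. The group was defined by gene symbol alone: C-type lectins (Clec followed by a digit), Fc receptors (Fcgr and Fcer), the Ms4a, Siglec, Cd300, Cd209, toll-like receptor (Tlr) and Trem families, and the single genes Emr1, Csf1r, Cd14, Ptprc and Tyrobp. It held 99 of the 23361 genes with values. Another 2 genes with such symbols, Ms4a14 and Ms4a4a, carried no value. Because the rule reads symbols, it also took in genes known mainly from other cells. A list of 17 such genes was written, which counts the mast cell genes Fcer1a and Ms4a2 as well as the antibody transporter Fcgrt but not Siglecg, an inhibitory receptor known best from B cells.

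RNA-Seq was performed on brown preadipocytes (D0) and on differentiated brown adipocytes (D7), with 1 library per stage, so that the transcripts of the cells before and after they became adipocytes could be compared. Both came from interscapular brown adipose tissue of newborn C57BL/6 mice (C57BL/6J in the methods of the study), and no gene was deleted or introduced in either group according to the labels. According to the labels, both groups were kept before D0 in medium with serum, insulin and T3 (the thyroid hormone triiodothyronine), whereas the methods of the study first name insulin and T3 in the medium used from D0. Only the D7 cells were then induced with IBMX, dexamethasone and indomethacin, and cultured in the differentiation medium to day 7. The labels describe primary cultures, and the abstract and results of the study also call the cells primary. Its methods describe primary cells that were then immortalized with large T, from newborn mice of either sex. The labels and the methods also differ in the doses of insulin and dexamethasone. Whether cells of several animals were pooled is not given in the sources used here, and neither source describes a sorting step for the cells.

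These receptors work in pairs of activating and inhibitory members. Many activating receptors have no signalling motif of their own and borrow one from the small membrane adaptors Tyrobp (DAP12) or Fcer1g (the common Fc receptor gamma chain), which recruit the kinase Syk, while inhibitory members recruit phosphatases such as Ptpn6 (SHP-1). Most toll-like receptors signal by the separate adaptor Myd88, either at the cell surface or from endosomes. Adipose tissue holds resident macrophages, and a preparation of preadipocytes from it can carry them along.

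Expression was measured as FPKM, the number of fragments scaled to transcript length and to sequencing depth, and a ratio is FPKM at D7 over FPKM at D0. The number of fragments behind each value was recovered from the steps between low values, with 21487615 fragments at D0 and 18265727 at D7 as the totals to which FPKM was relative. Intervals are exact 95% intervals of the ratio from these fragments. Such an interval covers counting error alone and compares 2 libraries, not 2 stages. Without replicates, the spread between cultures is unknown and no test between the stages could be made.

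Of the 99 receptor genes, 55 were above 0 in both libraries. In 32 of them FPKM was at least 2.0-fold higher at D7, and in 2 it was at least 2.0-fold lower. Over all 14986 genes above 0 in both libraries, 18.5% were higher and 13.2% lower by the same measure. These shares are the background for each later count made in the same way. The ratio was above 1 in 49 of the 55 receptor genes and below 1 in 6, with a median log2 ratio of 1.46, beside 0.02 over all genes. The summed FPKM of the group was 206 at D0 and 589 at D7. An FPKM of at least 1 was reached by 23 of the 99 at D0 and by 36 at D7, and by 11254 and 11576 of all 23361 genes.

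Of the others, 7 were listed at 0 at D0 only, 1 at D7 only and 36 in both libraries. Over all genes with values, these shares were 4.33%, 2.88% and 28.6%. In 5 of the 32 higher genes, Clec4a1, Clec4a2, Clec4a3, Tlr9 and Cd209c, the value at D0 rested on 3 fragments or fewer. With all values raised to that limit of 3 fragments, 57 genes exceeded it in at least 1 library, 35 of them were at least 2.0-fold higher, 2 lower, and the median log2 ratio was 1.73. In 42 genes at least 20 fragments were counted in a library. Of these, 29 were higher and 1 was lower, where 16.6% and 12.6% of all genes with that many fragments were, and the 40 with the most fragments are described with their intervals. The interval lay above 1 in 31 of these 40, below 1 in 2, and included 1 in 7. Over all genes with at least 20 fragments in a library, it lay above 1 in 38.5% and below 1 in 40.2%.

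**Figure D1:**
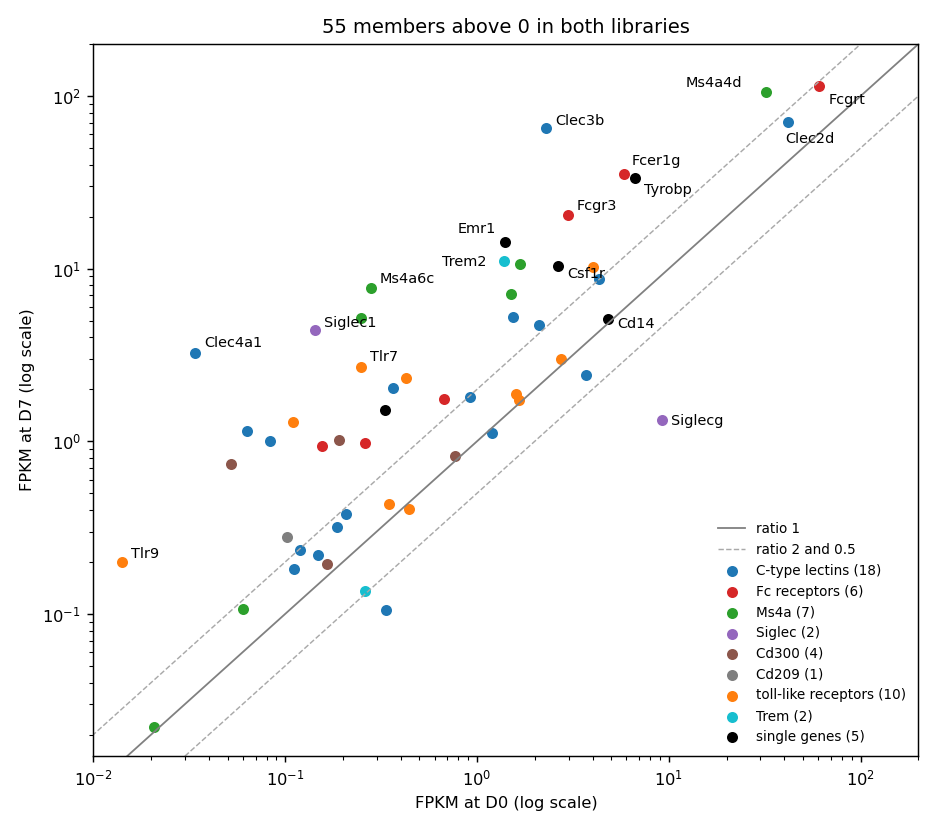
FPKM at D7 against FPKM at D0, both on log scales, for the 55 receptor genes above 0 in both libraries, 1 point per gene and coloured by family. Most points lie above the solid line of equal values, 32 lie on or above the upper dashed line (2.0-fold), and Siglecg lies alone far below the lower dashed line at 0.145.

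**Figure D2:**
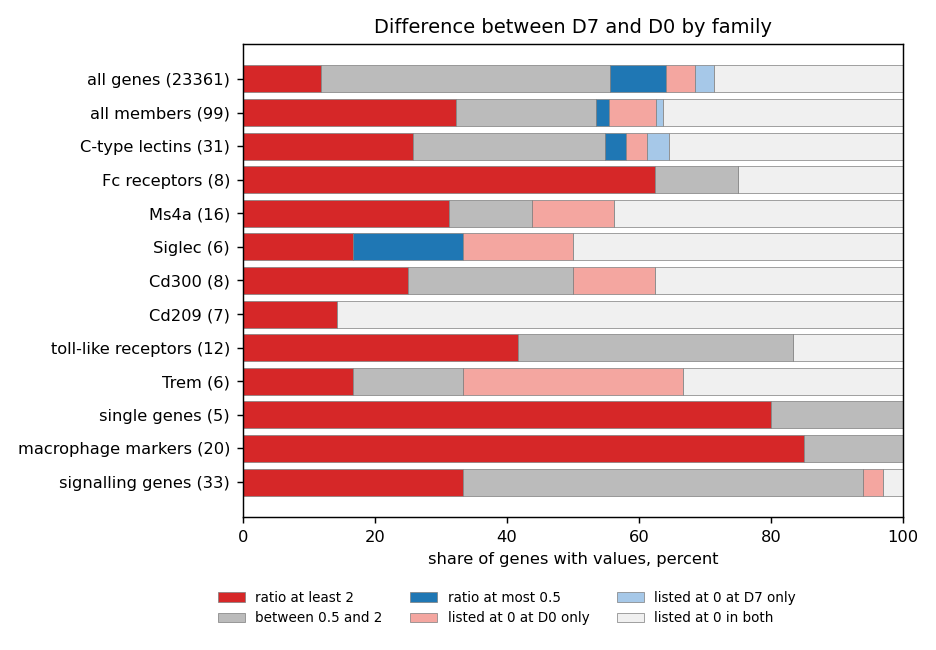
Share of genes with values, in percent, that were higher, lower, between these limits or listed at 0, for all genes, the 99 receptor genes, each family (number of genes in brackets), macrophage markers and signalling genes. The red part, a ratio of at least 2.0, holds 32 of 99 receptor genes and 17 of 20 macrophage markers, and the Cd209 bar is almost all pale for the 6 of 7 genes at 0 in both libraries.

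Promoters of the group were searched for GAGGAA, a core of the sites that the ETS factor PU.1 (Spi1), a regulator of the myeloid lineage, is known to bind. The search read both strands (TTCCTC is the same motif on the other strand) in RefSeq windows of the GRCm38.p6 build, each from 250 bases before to 50 bases after a transcript start. Of the 99 genes, 79 were found in the table of promoters by symbol, with 90 windows. The motif was present in 43 of these 90 windows (47.8%) and in 9289 of all 32851 windows (28.3%). By status, it was present in 17 of 28 windows of the genes higher at D7 (60.7%), in 12 of 24 windows of those above 0 in both and not higher (50%), and in 10 of 33 windows of those listed at 0 in both (30.3%). The longer GAGGAAGT, which contains the first motif, was present in 7 of the 90 windows and in 3.2% of all windows. By status, this longer motif did not follow the order of the shorter one. It was present in 2 of 28 windows of the higher genes (7.14%) and in 3 of 24 of those not higher (12.5%). Among the 33 windows of genes listed at 0 in both, 2 held it (6.06%). A match is a string of letters, and no binding was measured here.

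Among the 40 genes with intervals, 28 were higher at D7, not all of which had a promoter window. How many of all promoters hold a match in the 120 bases before the start was not counted. Of the 28, 8 held GAGGAA or TTCCTC within these bases. The 120 bases are printed for the 7 of these outside the list of genes of other cells, and for Fcer1g as a higher gene without a match. The set was chosen after the matches were seen. All sequences are RefSeq sequences of GRCm38.p6, 5′ to 3′ on the strand of the gene, and capitals mark the motif on either strand.
Fcgr1, chr3:96293970-96294089, minus strand: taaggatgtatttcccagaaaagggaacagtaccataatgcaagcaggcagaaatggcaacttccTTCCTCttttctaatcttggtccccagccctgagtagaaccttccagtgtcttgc
Fcgr3, chr1:171059395-171059514, minus strand: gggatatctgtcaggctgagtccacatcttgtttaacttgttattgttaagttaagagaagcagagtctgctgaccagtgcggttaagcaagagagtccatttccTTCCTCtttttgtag
Clec12a, chr6:129350124-129350243, plus strand: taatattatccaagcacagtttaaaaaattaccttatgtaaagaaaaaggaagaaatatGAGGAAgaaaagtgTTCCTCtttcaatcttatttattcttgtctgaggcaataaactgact
Trem2, chr17:48346281-48346400, plus strand: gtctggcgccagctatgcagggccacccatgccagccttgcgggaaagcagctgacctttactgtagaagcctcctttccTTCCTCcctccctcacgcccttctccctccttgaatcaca
Cd300a, chr11:114889921-114890040, plus strand: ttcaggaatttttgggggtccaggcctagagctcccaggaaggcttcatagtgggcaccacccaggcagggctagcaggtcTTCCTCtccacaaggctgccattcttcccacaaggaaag
Tlr8, chrX:167264330-167264449, minus strand: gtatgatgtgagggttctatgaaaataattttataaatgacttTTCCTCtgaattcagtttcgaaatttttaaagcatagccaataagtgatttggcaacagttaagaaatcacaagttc
Tlr13, chrX:106143155-106143274, plus strand: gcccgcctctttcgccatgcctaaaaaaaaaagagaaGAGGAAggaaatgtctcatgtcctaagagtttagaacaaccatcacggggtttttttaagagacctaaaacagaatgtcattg
Fcer1g, chr1:171234350-171234469, minus strand: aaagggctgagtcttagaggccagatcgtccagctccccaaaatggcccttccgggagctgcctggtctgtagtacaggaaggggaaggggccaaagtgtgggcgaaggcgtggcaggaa

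Both adaptors were higher at D7, by a like factor. Tyrobp (ENSMUSG00000030579.10, chromosome 7, 30413788 to 30417579 in mm10) was at 6.62 FPKM at D0 and 33.7 FPKM at D7, from 55 and 235 fragments. Its ratio was 5.08 (95% interval 3.75 to 6.91). Fcer1g (ENSMUSG00000058715.11, chromosome 1, 171229572 to 171234349) was at 5.83 FPKM at D0 and 35.2 FPKM at D7, with a ratio of 6.03 (4.57 to 8.04). The 2 adaptors thus lay close to each other in level per length at each stage. Their partners were less uniform. Of 16 receptors known to signal through such an adaptor, 11 were above 0 in both libraries, 6 were higher, none was lower, and the median log2 ratio was 1.78. Their summed FPKM was 8.76 at D0 and 43.3 at D7.

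Fc receptors bind the constant part of antibodies. Of 8 genes, 6 were above 0 in both libraries, and 5 of these were higher. Fcgr3, the activating low-affinity receptor for IgG, was at 2.98 FPKM at D0 and 20.4 FPKM at D7, a ratio of 6.85 (95% interval 5.33 to 8.83). Fcgr1, the high-affinity receptor, had 0.155 and 0.933, a ratio of 6.03 (2.79 to 14.9) on 8 and 41 fragments. Fcgr2b, the inhibitory receptor for IgG, had 0.674 and 1.75, a ratio of 2.59 (1.82 to 3.68). The interval of Fcgr2b therefore ended below that of Fcgr3, which uses Fcer1g. The 2 genes share about 5.27% (of Fcgr2b) and 5.09% (of Fcgr3) of their 90-base windows with other transcripts, each other's included, so a small part of their fragments could be assigned to either.

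The remaining Fc receptors were the activating Fcgr4 and genes of other cells. Fcgr4 was at 0.261 FPKM at D0 and 0.974 FPKM at D7, a ratio of 3.73 (95% interval 1.43 to 11.4) on 6 and 19 fragments. Fcgrt, the neonatal receptor that carries IgG and albumin across cells and is expressed in many cell types, was the highest gene of the whole group at both stages. It had 60.9 at D0 and 114 FPKM at D7, a ratio of 1.87 (1.77 to 1.97) that stayed under 2.0-fold. The receptors for IgE known from mast cells (Fcer1a) and B cells (Fcer2a) were listed at 0 in both libraries, although Fcer1g, which Fcer1a shares with the IgG receptors, was among the most abundant genes of the group.

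C-type lectins made up 31 genes. Of these, 18 were above 0 in both libraries, 8 were higher, 1 was lower and the median log2 ratio was 0.97. The lectin with the largest difference in FPKM was Clec3b (tetranectin), a secreted plasminogen-binding protein that is no myeloid receptor. It was at 2.29 FPKM at D0 and 64.8 FPKM at D7, a ratio of 28.3 (95% interval 20.6 to 39.8) from 40 and 959 fragments. It lies on chromosome 9 from 123150946 to 123157432 (ENSMUSG00000025784.5).

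Within the Clec4 cluster, which spans chromosome 6 from 122921848 to 123289871, 6 of 9 genes were above 0 in both libraries and 4 were higher. Clec4a1 was at about 1 fragment at D0 (FPKM 0.0338) and at 82 fragments at D7 (FPKM 3.26), a ratio of 96.6 whose interval from 16.9 to 3862 is wide. The inhibitory receptor Clec4a2 (DCIR) was at 0.0629 and 1.14, a ratio of 18.2 (4.40 to 1117) on 1 and 23 fragments, and 6.31% of its windows are shared with Clec4a4. Clec4a3 was at 0.0828 and 1.00, a ratio of 12.1 (2.86 to 104) on 2 and 20 fragments. Clec4a1, Clec4a2 and Clec4a3 were thus close to the limit of detection at D0 and detected at D7. Clec4a4 and Clec4b1, which lie between Clec4a3 and Clec4a2, were not detected at either stage.

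At the end of the cluster away from Clec4a1 lie receptors for fungal and mycobacterial glycans and glycolipids that use Fcer1g. These were already present at D0. Clec4d (MCL) was at 1.53 FPKM at D0 and 5.27 FPKM at D7, a ratio of 3.44 (95% interval 2.34 to 5.07). Clec4n (dectin-2) had 0.918 and 1.81, a ratio of 1.97 (1.11 to 3.55). Clec4e (Mincle) had 0.119 and 0.234, and its interval from 0.646 to 6.57 includes 1, so a difference was not detectable on 6 and 10 fragments. Clec4a4, Clec4b1 and Clec4b2 of the same cluster were listed at 0 in both.

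**Figure D3:**
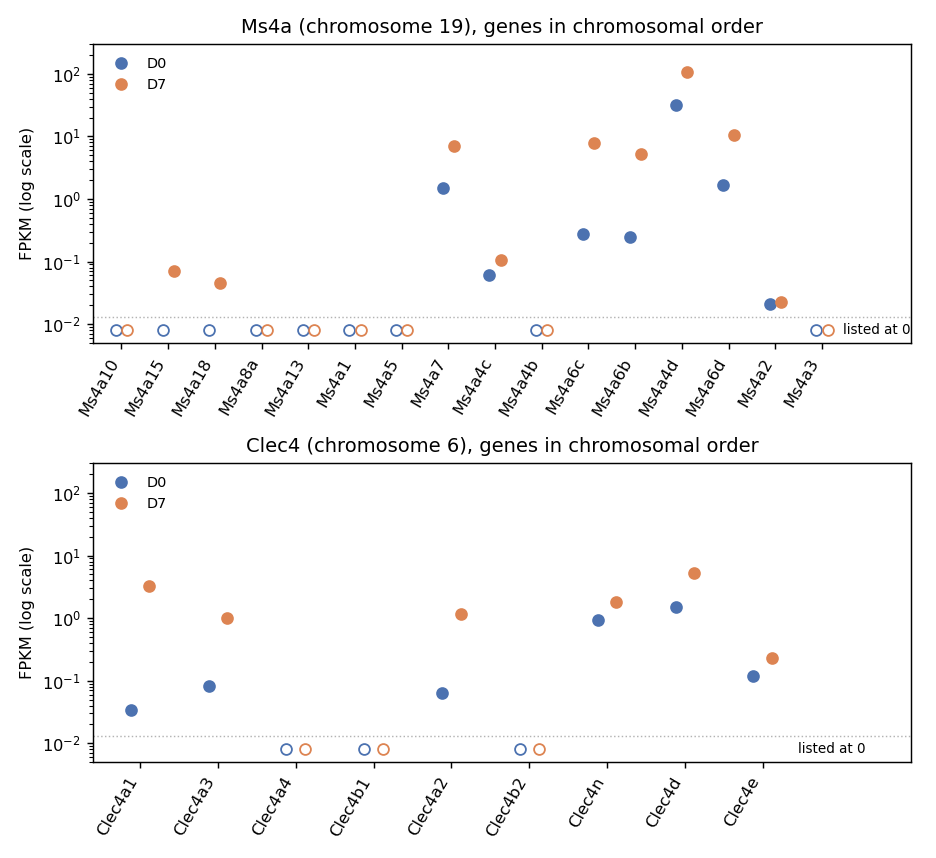
FPKM at D0 and D7 on a log scale for the 16 Ms4a genes of chromosome 19 and the 9 Clec4 genes of chromosome 6, in chromosomal order, with open circles below the dotted line for values listed at 0. In the lower panel, Clec4a1, Clec4a3 and Clec4a2 have the widest gaps between stages. The middle of the upper panel, from Ms4a7 to Ms4a6d, holds all Ms4a genes with an FPKM of at least 1.

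The second lectin group of chromosome 6, which reaches from Clec2 to Clec12 genes, had 1 higher and 1 lower gene among 6 above 0 in both libraries. Clec12a, an inhibitory receptor of myeloid cells, was at 0.365 FPKM at D0 and 2.04 FPKM at D7, a ratio of 5.59 (95% interval 3.36 to 9.94). Clec2d, a ligand of the NK cell receptor Klrb1 that is made by many cells, was the second most abundant gene of the group at D0, with 42.0, and reached 70.9 at D7, a ratio of 1.69 (1.55 to 1.84). Clec1a had 1.19 and 1.12, a ratio of 0.938 (0.659 to 1.34). Clec2e passed the lower limit, with a ratio of 0.314, but its interval from 0.0806 to 1.07 on 14 and 4 fragments includes 1.

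The lectins with a tyrosine motif of their own were low at both stages. Clec7a (dectin-1), the receptor for beta-glucans, was at 0.111 FPKM at D0 and 0.183 FPKM at D7, and Clec9a, a dendritic cell receptor for dead cells, had 0.185 and 0.317. Their intervals, from 0.450 to 6.59 and from 0.805 to 4.02, include 1. Clec1b, the platelet receptor of this kind, was listed at 0 in both. The value of Clec9a is uncertain because its locus overlaps that of Clec1b on the same strand.

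Other lectins are known from other cells. Clec16a, an intracellular regulator of mitophagy rather than a receptor, was at 4.31 FPKM at D0 and 8.73 FPKM at D7, a ratio of 2.03 (95% interval 1.82 to 2.25) that straddles 2.0-fold. Clec14a, an endothelial adhesion molecule, had 2.11 and 4.72, a ratio of 2.23 (1.87 to 2.66). Clec11a, a secreted growth factor of the bone marrow and skeleton, had 3.70 and 2.41, and its ratio of 0.651 (0.519 to 0.817) lay below 1 without reaching 0.5. Clec10a, the macrophage galactose lectin, was listed at 0 at D0 and had 0.624 at D7 (14 fragments), which is at least 5.69-fold higher than 3 fragments at D0, although 8.13% of its windows are shared with Mgl2.

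The 2 remaining lectins with a value above 0 were Clec2l, with an FPKM of 0.149 and 0.220, and Clec5a, with 0.207 and 0.378, whose deposited locus spans other genes. Clec2h was at 1 fragment at D0 and listed at 0 at D7. Listed at 0 in both were Clec12b, Clec18a, Clec1b, Clec2g, Clec2i, Clec3a, Clec4a4, Clec4b1, Clec4b2, Clec4f and Clec4g. Of the Cd209 family, relatives of the dendritic cell lectin DC-SIGN, Cd209a, Cd209b, Cd209d, Cd209e, Cd209f and Cd209g were listed at 0 in both. The only one detected, Cd209c, had 0.102 and 0.280 on 3 and 7 fragments, a ratio of 2.75 whose interval from 0.628 to 16.5 includes 1.

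Siglecs bind sialic acid. The family of 6 held a gene with a ratio far above 1 and the only lower gene whose interval lay below 0.5. Siglec1 (sialoadhesin, CD169), a marker of tissue macrophages (ENSMUSG00000027322.11, chromosome 2, 131069220 to 131086765), was at 0.143 FPKM at D0 and 4.38 FPKM at D7. Its ratio was 30.8 (95% interval 19.5 to 51.6) on 19 and 497 fragments, and 4.71 after adding a pseudocount of 1. Siglecg, an inhibitory receptor known best from B cells (ENSMUSG00000030468.12, chromosome 7, 43408280 to 43418349), had 9.17 at D0 and 1.33 FPKM at D7. Its ratio was 0.145 (0.108 to 0.191) on 471 and 58 fragments, the opposite direction to Siglec1. At D0 it was the most abundant of the 11 inhibitory receptors. About 4.68% of the windows of Siglecg are shared with Gm29791. Of 7 B cell markers, 4 were listed at 0 at both stages, Pax5 and Ms4a1 among them. Cd79a was at 2 fragments at D0 and 1 at D7, Cd22 at 1 and 2, and Cd79b at 0 and 1. The part of B cells in the values of Siglecg was not tested.

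Siglece, another inhibitory Siglec, was listed at 0 at D0 and stood at 0.460 FPKM at D7, at least 5.50-fold higher than the limit of 3 fragments. The inhibitory Siglec5 and the activating Siglec15 and Siglech were listed at 0 in both. Over all 11 inhibitory receptors of the group, 6 were above 0 in both libraries, 4 were higher and 1, Siglecg, was lower. Their median log2 ratio was 1.93, whereas their summed FPKM was 10.5 at D0 and 7.65 at D7. The median and the sum thus point in opposite directions, because Siglecg held 9.17 of the sum at D0.

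Cd300 receptors recognise lipids of dying cells. Cd300a, an inhibitory member, was at 0.0522 FPKM at D0 and 0.736 FPKM at D7, a ratio of 14.1 (95% interval 5.73 to 45.1) on 5 and 60 fragments. Cd300lb, an activating member that uses Tyrobp, had 0.190 and 1.01, a ratio of 5.35 (2.75 to 11.4). Cd300ld, an activating member that uses Fcer1g, had 0.763 and 0.825, a ratio of 1.08 (0.677 to 1.75), and Cd300lf, an inhibitory one, had 0.166 and 0.195. Higher and not higher genes therefore lay in 1 cluster on chromosome 11. Cd300lg, known from capillary endothelium and encoded elsewhere on that chromosome, was listed at 0 at D0 and had 0.126 at D7, at least 2.31-fold higher than the limit of 3 fragments. Cd300c, Cd300e and Cd300lh were listed at 0 in both.

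Of the 6 genes of the Trem family, Trem1, Trem2 and Trem3 encode activating receptors of myeloid cells that use Tyrobp. Trem2, a lipid and lipoprotein receptor of tissue macrophages, was at 1.38 FPKM at D0 and 11.1 FPKM at D7, a ratio of 8.07 (95% interval 5.35 to 12.5). Trem1, which amplifies inflammation in neutrophils and monocytes, had 0.262 and 0.135, a ratio of 0.515 (0.179 to 1.32) on 16 and 7 fragments. The intervals of Trem1 and Trem2, which lie in the same cluster on chromosome 17, did not overlap. Trem3 and Treml4 were listed at 0 at D0, with 3 fragments and 1 fragment at D7, and Treml1 and Treml2 were listed at 0 in both.

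The Ms4a genes encode proteins that cross the membrane several times, of which the best known are the B cell antigen CD20 (Ms4a1) and the beta chain of the IgE receptor (Ms4a2). Of 16 genes, 7 were above 0 in both libraries, 5 of these were higher at D7 and none was lower. Ms4a4d was by far the most abundant, with 31.9 at D0 and 106 FPKM at D7, a ratio of 3.31 (95% interval 3.07 to 3.57). Ms4a6c had 0.280 and 7.71, a ratio of 27.5 (14.7 to 58.2) on 10 and 234 fragments. Its neighbour Ms4a6b had 0.247 and 5.17, a ratio of 20.9 (10.3 to 49.4). These 2 share under 2% of their windows with other transcripts.

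Ms4a6d and Ms4a7 differed by smaller factors from higher levels at D0. Ms4a6d had an FPKM of 1.68 and 10.7, a ratio of 6.36 (95% interval 4.57 to 8.88). Ms4a7, a gene of mature macrophages, had 1.50 and 7.15, a ratio of 4.77 (2.93 to 7.73). Ms4a4c was at 2 and 3 fragments and Ms4a2 at 1 fragment in each library. Ms4a15 and Ms4a18 were listed at 0 at D0 and had 2 fragments and 1 fragment at D7. Ms4a1, Ms4a3, Ms4a4b, Ms4a5, Ms4a8a, Ms4a10 and Ms4a13 were listed at 0 in both libraries, so the genes of this cluster that mark B cells and mast cells were at or near 0.

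Toll-like receptors act at the cell surface or in endosomes. Of 5 that sense bacterial and fungal components at the cell surface, 1 was higher at D7, a share near the 18.5% of all genes. Their median log2 ratio was 0.23. Of 7 that sense nucleic acids or proteins in endosomes, 5 were above 0 in both libraries and 4 of these were higher, with a median log2 ratio of 3.45. The difference between these sets was not tested, since genes of 2 libraries are not replicates. Tlr4 and Tlr3 each went against the other genes of their set. With a pseudocount of 1, the ratios of Tlr7, Tlr8 and Tlr13 were 2.97, 2.06 and 2.34, and that of Tlr4 was 2.23.

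Among the surface receptors, Tlr4, which senses lipopolysaccharide together with Ly96 and Cd14, was at 4.01 FPKM at D0 and 10.2 FPKM at D7, a ratio of 2.54 (95% interval 2.23 to 2.90). Tlr2, the receptor for bacterial lipoproteins, had 1.65 and 1.74, a ratio of 1.05 (0.781 to 1.41). Its partner Tlr6 had 0.442 and 0.408, a ratio of 0.921 (0.533 to 1.60), and its partner Tlr1 had 0.348 and 0.432. Tlr1 and Tlr6 share 10.7% and 8.05% of their windows with each other, so reads may have been divided between them. Tlr5, the receptor for flagellin, had 1.59 and 1.87, a ratio of 1.18 (0.887 to 1.56). For Tlr2, Tlr5 and Tlr6 a difference was not detectable at this depth, and their intervals all end below 2.0-fold.

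Among the endosomal receptors, Tlr7, a sensor of single-stranded RNA, was at 0.248 FPKM at D0 and 2.70 FPKM at D7, a ratio of 10.9 (95% interval 6.82 to 18.6). Tlr8, its neighbour on chromosome X, had 0.109 and 1.29, a ratio of 11.8 (5.40 to 26.8). Tlr13, a mouse sensor of bacterial ribosomal RNA that lies elsewhere on chromosome X, had 0.425 and 2.33, a ratio of 5.48 (3.83 to 8.24). Tlr9, a sensor of CpG DNA, was at 1 and 12 fragments, a ratio of 14.1 (2.09 to 604). Tlr3, which senses double-stranded RNA and is expressed by many cells that are not myeloid, was the exception, with 2.74 and 3.01, a ratio of 1.10 (0.913 to 1.32). At D0 Tlr3 was the most abundant of these receptors, and at D7 Tlr7 stood near it. Tlr11 and Tlr12 were listed at 0 in both.

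**Figure D4:**
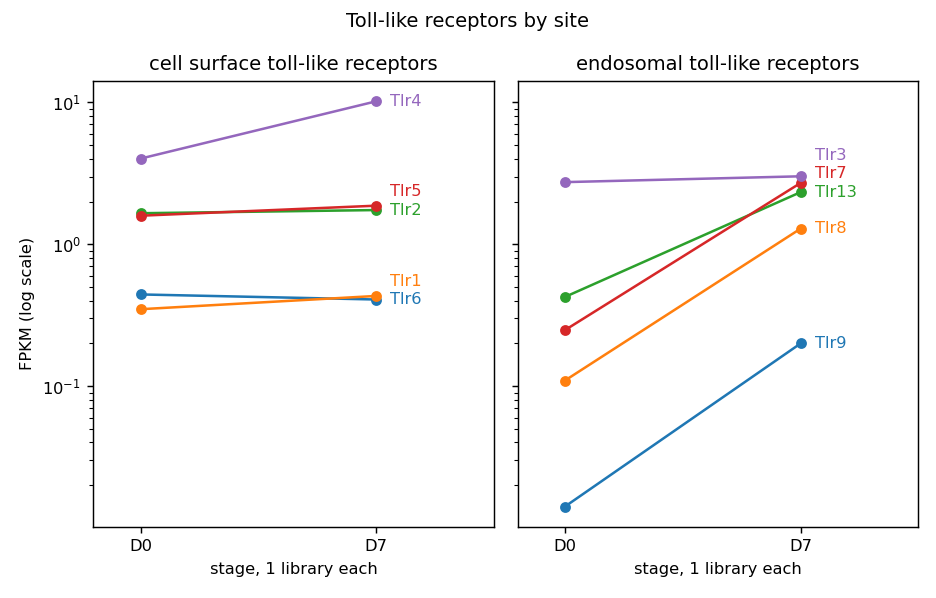
FPKM on a log scale at D0 and D7 for the 10 toll-like receptors above 0 in both libraries, 1 line per gene, cell surface receptors on the left and endosomal receptors on the right. On the left only the line of Tlr4 climbs past 2.0-fold, and on the right all lines but that of Tlr3 do.

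The single genes are general markers of myeloid cells. Emr1 (now Adgre1), the classic marker of mouse macrophages, was at 1.40 FPKM at D0 and 14.3 FPKM at D7, a ratio of 10.2 (95% interval 8.20 to 12.8). Csf1r, the receptor on which macrophages depend for survival, had 2.63 and 10.4, a ratio of 3.94 (3.37 to 4.62). Ptprc (CD45), present on all white blood cells, had 0.331 and 1.51, a ratio of 4.56 (3.11 to 6.79). Cd14, the coreceptor that passes lipopolysaccharide to Tlr4, had 4.81 and 5.08, a ratio of 1.06 (0.829 to 1.34). In these bulk samples, more cells of a type and more RNA of a gene per cell cannot be told apart.

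**Figure D5:**
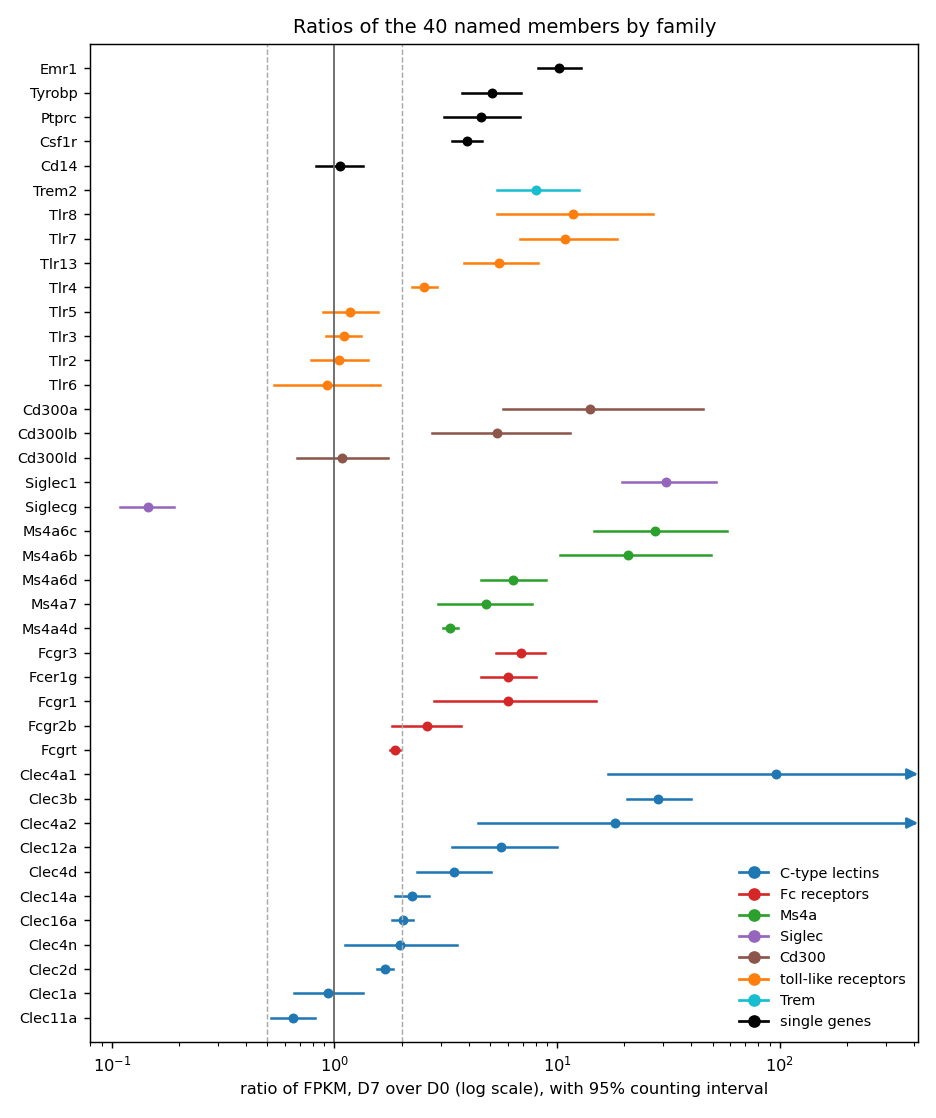
Ratio of FPKM, D7 over D0, on a log scale with its 95% counting interval for the 40 described receptor genes, grouped by family, with lines at 1 (solid) and at 2.0 and 0.5 (dashed) and arrowheads where an interval runs past the axis. The interval lies wholly above 2.0 for 25 genes, and only those of Siglecg and Clec11a lie wholly below 1.

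The factors were not equal across the group. Each ratio was divided by that of Ptprc and by that of Csf1r, references chosen after the values were seen, with exact intervals from the fragments of both genes. Against Ptprc, the interval lay above 1 for 9 of 39 genes (Clec3b, Emr1, Siglec1, Ms4a6c, Ms4a6b, Tlr7, Tlr8, Clec4a1 and Cd300a), below 1 for 16, and included 1 for 14. Against Csf1r, it lay above 1 for 14, below 1 for 17 and included 1 for 8. Siglec1 exceeded Ptprc by a factor of 6.74 (95% interval 3.63 to 12.9), and Emr1 by 2.24 (1.41 to 3.50). Tyrobp, at 1.11 (0.667 to 1.82), and Fcer1g, at 1.32 (0.806 to 2.14), were not separable from Ptprc. Tlr4 lay below it, at 0.56 (0.366 to 0.836), as did Cd14, at 0.23 (0.145 to 0.366). These intervals cover counting error only.

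The 17 listed genes of other cells were also counted apart. Of these, 10 were above 0 in both libraries, 3 were higher (Clec3b, Clec14a and Clec16a), and the median log2 ratio was 0.50. Of the other 82, 45 were above 0 in both, 29 were higher, 2 were lower (Clec2e and Siglecg), and the median was 1.98. The list was written with earlier results known, the count without it was added after seeing the data, and the difference between the sets was not tested. The 17 genes held 121 of the summed FPKM of 206 at D0 and 272 of 589 at D7, mostly as Fcgrt, Clec2d and Clec3b.

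Below the receptors, 33 signalling genes were examined, of which 31 were above 0 in both libraries. Of these, 11 were higher, none was lower and 20 lay between, beside 18.5% higher and 13.2% lower over all genes. Among the 26 that reached an FPKM of 1 in a library, 6 were higher, beside 15.6% of all genes with that level. The median log2 ratio of the 31 was 0.21, and that of the 26 was 0.04. The 3 highest ratios among those reaching an FPKM of 1 were those of Lbp, Ptpn6 and Vav1, the last 2 of which are known mainly from blood cells. Ptpn6, the phosphatase of inhibitory receptors, was at 0.599 FPKM at D0 and 3.04 FPKM at D7, a ratio of 5.07 (95% interval 3.32 to 8.17). Vav1, an exchange factor that acts after Syk, had 0.269 and 1.26, a ratio of 4.69 (2.69 to 8.73). Lbp, the secreted protein that hands lipopolysaccharide to Cd14, had 3.20 and 18.6, a ratio of 5.83 (4.92 to 6.96). Syk, the kinase that the adaptors recruit, had 1.11 and 2.22, a ratio at the limit of 2.00 (1.60 to 2.53). Card9, which carries the signal of the activating lectins onward, was at 2 and 14 fragments, a ratio of 6.48 (1.89 to 74.7).

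Myd88, the adaptor of most toll-like receptors, is used by many cell types. It was at 24.0 FPKM at D0 and 20.3 FPKM at D7, a ratio of 0.848 (95% interval 0.766 to 0.938). Ly96 (MD-2), the partner of Tlr4, had 5.93 and 6.24, a ratio of 1.05 (0.699 to 1.54). The lowest ratios were those of Bcl10, which acts with Card9, at 0.565 (0.512 to 0.622), of the kinase Irak2 at 0.578 (0.518 to 0.644), and of the adaptor Tirap at 0.688 (0.552 to 0.853). Hcst (DAP10), another membrane adaptor, was listed at 0 in both.

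Of 10 transcription factors linked to the PU.1 programme, 5 were higher (3 with a floor of 0.01 and division by the library median) and 1 was lower. Over all genes above 0 in both libraries, 18.5% were higher and 13.2% lower. The median log2 ratio of the 10 factors was 0.77. Spi1 itself, listed under its older symbol Sfpi1, was at 1.13 FPKM at D0 and 4.52 FPKM at D7, a ratio of 4.00 (95% interval 2.85 to 5.71). Ikzf1, a factor of blood cells, had 0.118 and 1.22, a ratio of 10.3 (5.64 to 19.5). Mitf, a factor of osteoclasts, mast cells and pigment cells, had 0.939 and 4.42, a ratio of 4.71 (3.74 to 5.94). Runx1, which acts in blood formation but also in mesenchymal cells, moved the other way, from 9.74 to 2.21, a ratio of 0.227 (0.197 to 0.263). Cebpb and Nfe2l2, both widely expressed, had ratios of 0.650 and 0.834.

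Ligands of the receptors were examined as 19 genes, of which 18 were above 0 in both libraries. Of these, 6 were higher and 5 were lower, beside 18.5% and 13.2% of all genes, and the median log2 ratio was -0.38. Csf1, the growth factor of Csf1r, was abundant at both stages and fell from 304 to 144 FPKM, with a ratio of 0.474 (95% interval 0.463 to 0.485). Il34, the second ligand of Csf1r, was higher at D7, with 3.01 and 10.6, a ratio of 3.52 (2.82 to 4.46). Clu and Apoe, apolipoproteins that Trem2 binds, were both higher. Clu had 1.17 and 49.6, a ratio of 42.3 (31.1 to 59.3), and Apoe had 22.8 and 472, a ratio of 20.7 (19.1 to 22.5). S100a8, a ligand of Tlr4, was at 1 and 30 fragments, a ratio of 25.0 (5.91 to 1449), while its partner S100a9 was listed at 0 in both.

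Apart from Csf1, the lower ligands were the matrix proteins Tnc, Vcan and Fn1 and the surface protein Pdpn. Tnc (tenascin C), a matrix ligand of Tlr4, fell from 604 to 31.0 FPKM, with a ratio of 0.0513 (95% interval 0.0497 to 0.0530). Vcan (versican), a matrix ligand of Tlr2, had a ratio of 0.242 (0.223 to 0.262). Pdpn (podoplanin), the ligand of Clec1b, had a ratio of 0.264 (0.249 to 0.279), whereas Clec1b itself was not detected. The receptors Tlr2 and Tlr4 did not share the direction of these matrix ligands, at ratios of 1.05 and 2.54.

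Marker genes of cell types were summed beside these results. Of 20 macrophage markers, which include 3 genes of the group, 17 were higher at D7 and none was lower, beside 18.5% and 13.2% of all genes. The summed FPKM of the 20 markers was 217 at D0 and 710 at D7, and none was listed at 0. The highest ratios among them were those of Cd163 (121, on 1 and 103 fragments), Mrc1 (35.8) and Aif1 (20.1), and the lowest were those of Cd53 (0.600), Lgals3 (1.31) and Coro1a (1.88). Markers of other white blood cells were examined too. The 9 dendritic cell markers summed to 1.69 and 2.63, with Flt3, Ccr7, Cd209a and Siglech at 0. The 9 T or NK cell markers summed to 0.0735 and 0.0873. Of 9 neutrophil markers, S100a9, Ltf and Elane were at 0, and of the 4 above 0 in both libraries 3 were higher and 1 was lower. Their sum was 1.00 and 12.3, mostly Camp (6.30 at D7) and S100a8 (5.47 at D7). Of 8 mast cell markers, Mcpt4, Tpsb2 and Fcer1a were at 0, and nearly all of the sum of 10.6 and 3.30 was Gata2, which preadipocytes also express. The part of macrophages and of neutrophils in the differences of the receptors was not tested.

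Markers of the labelled cell types were examined as well. All 8 brown adipocyte markers were higher at D7 or detected only there, and Ucp1, Cidea and Elovl3 were listed at 0 at D0. The 7 preadipocyte markers were divided, with 2 lower (Col1a1 and Pdgfrb) and 2 higher (Dlk1 and Cd34), beside 13.2% and 18.5% of all genes. Of 8 endothelial markers, which include Clec14a, 3 were higher and 2 lower, beside 18.5% and 13.2% of all genes. Cldn5 was at 0 and Pecam1 was at 1 fragment in each library. The part of endothelial cells in the values of Clec14a and Clec1a, both known from endothelium, was not tested.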

How the data were processed

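The authors filtered the reads, removed duplicates and reads of ribosomal RNA, aligned the rest to mm10 and to gene sequences, and deposited the expression of each gene as FPKM, 1 column per library. The methods of the study name SOAP2 as aligner and the submitters' processing notes name Bowtie2. The libraries kept strand, but whether strand was used in counting is not given in the sources used here. Of 27324 rows, 3963 held no value. No column was left unmatched.

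Receptor genes were selected by symbol, and ratios were computed without a pseudocount or rescaling. A gene was called higher at a ratio of at least 2.0 and lower at 0.5 or less, and genes listed at 0 were counted apart. To recover fragments, 592 single-exon genes no shorter than 600 bp were used. With 180 and 182 bp taken off the length for D0 and D7, 100% of 76 and 85 values at or under 20 fragments came out whole (tolerance 0.1), beside 16.7% and 14.4% with shuffled lengths. For other genes, transcript lengths of the GENCODE M21 annotation (98 of 99 genes matched) were used, and numbers of fragments are approximate: 18 of 27 low values of the group at D0 and 12 of 20 at D7 were whole. Intervals are exact Clopper-Pearson intervals, and 3 fragments was the limit for a value of 0.

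The members and lists were chosen with earlier results of these data known. Described with intervals are the 40 genes with the most fragments among those with at least 20 in a library, and of each list the 3 highest and 3 lowest ratios at an FPKM of at least 1, plus Spi1, Syk, Card9, Myd88, Ly96 and Csf1. Other genes are given by their values, chosen after these were seen. Of the lists, the T or NK cell and neutrophil lists lost 1 gene each that the table did not hold with a value. Alternatives were floors, pseudocounts, scalings, filters, and, chosen after seeing the data, sets without genes of other cells or with shared sequence. Scripts were tested on simulated data. Protein motifs were not analysed here, and the summed level of the B cell markers is not reported here. The scripts ran in Python 3.11.15 with scipy 1.17.1, pandas 2.3.3 and numpy 2.4.6, and plots were drawn with matplotlib 3.10.9.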

Additional observations from a re-analysis of the deposited data

How the results depend on the processing

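With 1 library per stage, no replicate could be left out. No paired analysis was possible because each stage has 1 library and no test was made. The count of 32 higher receptor genes was taken over 55 genes, and filters, floors and pseudocounts changed that number. Under the other alternatives for the ratio, the count lay between 26 of 36 (FPKM of at least 1 in 1 library) and 39 of 63 (floor of 0.01). Of all genes under these settings, 15.6% and 22% were higher. The count was 23 of 55 at a threshold of 4.0-fold, beside 8.08% of all genes. With a pseudocount of 1 it was 21 of 63, beside 9.2%. The count of 2 lower genes became 1 with a pseudocount of 1 and at a threshold of 4.0-fold. A filter at an FPKM of 1 in 1 library also left 1. The count of lower genes became 3 with the upper quartile or a floor of 0.01, and 4 with that floor and division by the library median. The median log2 ratio of 1.46 was 0.70 with a pseudocount of 1, which pulls low values together, and lay between 1.25 and 2.22 otherwise. Division by the library median shifted every log2 ratio by -0.35, which brought the median of the signalling genes to -0.14, their higher genes from 11 to 8, and those of the PU.1 programme from 5 to 3. It also brought Tlr2, Tlr3, Tlr5, Cd14 and Cd300ld below 1 (0.825, 0.861, 0.922, 0.828 and 0.847), and the other scalings shifted log2 ratios by 0.05 or less. Of the 40 described genes, 31 kept their side of 2.0-fold under all 9 alternatives run for them and no call turned to the opposite direction. The 9 exceptions were Ptprc (1.89), Fcgr2b (1.64), Cd300a (1.65), Cd300lb (1.69) and Fcgr1 (1.67) with a pseudocount of 1, Clec16a (1.83) and Clec14a (1.84) with it and with the library median (1.59 and 1.75), Clec16a also with the upper quartile (1.96) and TPM (1.99), Tlr4 (1.99) with the library median, and Clec4n (2.02) with a trimmed mean of log ratios. A pseudocount of 1 also lowered ratios that rest on low values at D0, such as those of Clec4a1 (to 4.12), Siglec1 (to 4.71), Ms4a6c (to 6.80) and Tlr8 (to 2.06). Without genes known from other cells, 29 of 45 were higher, and without genes sharing 5% or more of their windows, 29 of 50. Depth limits the genes at or under 3 fragments, for which a difference could not be measured.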
